A study of Rattus norvegicus with 12 samples.

Results

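The genes described here are complement component C3, the complement regulators Cfi and Cd55, the clusterin gene Clu, and C1qa, C1qb and C1qc, which encode the 3 chains of C1q. They were taken by symbol, as probe sets annotated with exactly 1 of these symbols, and make up 7 of the 14506 genes measured on the arrays. Each had 1 probe set, and all 7 were bright enough, by their mean over all rats, to be among the 10154 genes tested. The tissue was the uterus of ovariectomized young adult female Lewis rats, whose ovaries, the main source of estrogens, had been removed. The 4 groups of 3 rats each were compared. One group received 17β-estradiol (E2) at 4 µg/kg per day together with 3-methylcholanthrene (3-MC) at 15 mg/kg per day, the second E2 alone at that dose, the third 3-MC alone at that dose, and the fourth the vehicle, DMSO. 3-MC, a polycyclic aromatic hydrocarbon, is a ligand of the aryl hydrocarbon receptor. Dosing lasted 3 days and uteri were taken 24 hours after the last dose, with 1 Affymetrix array for each rat, 12 arrays in all.

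Complement is a cascade of plasma and tissue proteins that marks and destroys microbes and clears dying cells. C1q recognises antibody complexes and cell debris and starts the classical pathway, C3 is the protein on which all pathways converge, and factor I (Cfi) and decay-accelerating factor (Cd55) hold the C3 step in check. Clusterin is a secreted chaperone that also binds the terminal complement complex. In the rodent uterus C3 is a secreted product of the estrogen-stimulated epithelium, while C1q chains are made mainly by macrophages in most tissues.

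Values are probe set intensities on a linear scale as deposited. Differences between groups are given on the log2(intensity + 16) scale with the standard error (SE) of the limma fit, or with its 95% confidence interval. This scale understates changes of dim probe sets, and probe sets of different genes are not set against each other. A gene was called where its adjusted p was under 0.05 in limma over all genes tested, and the limit below which genes were left out as dim was a mean of 6.44 on the log2 scale. Array medians ran from 86.3 to 124. The interquartile range over all probe sets was 3.13 (log2) for vehicle rat 1 and 2.16 to 2.72 for the rest, so that this array was the most spread out. Of smooth muscle and stromal markers 9 of 9 and 10 of 10 measured genes were bright enough to be tested. So were 16 of 16 epithelial, 9 of 9 endothelial and 21 of 24 macrophage markers, and 10154 of 14506 genes in all. Passing this limit therefore does not by itself identify the tissue. Of lymphocyte markers 7 of 12 measured, and of hepatocyte markers 6 of 10, were dim.

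With E2, 4 of the 7 genes were called against vehicle, 3 higher (C3, Cfi and Cd55) and 1 lower (Clu). Of all genes tested 18.1% were called, 8.7% higher and 9.44% lower. The median difference over the 7 genes was 0.60, against -0.11 over all genes tested. The same split of 3 higher and 1 lower was found with E2+3-MC against vehicle, where 7.84% of all genes were called (6.06% higher and 1.78% lower). It was also found with E2+3-MC against 3-MC, where 8.21% were called (6.82% higher and 1.39% lower). These comparisons share control or treated animals and are not independent of one another. None of the 3 C1q chains was called with all 12 rats at equal weight. With arrays weighted by limma, which gave vehicle rat 1 the lowest weight, all 3 were called for E2 and for E2+3-MC against vehicle. With these weights 61% and 44.9% of all genes were called in the same comparisons.

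The 250 bases before the annotated start of the 3 genes called higher are printed because C3 is a textbook estradiol target and the palindrome that binds the estrogen receptor can be looked for in them. They are RefSeq sequences of build GRCr8, 5′ to 3′ on the strand of the gene. C3 lies on the minus strand (window chr9:2201340-2201589), Cfi on the plus strand (chr2:221063066-221063315) and Cd55 on the minus strand (chr13:44438102-44438351). Capitals mark the estrogen response element half-site, GGTCA, read on either strand, so that it appears as TGACC where it lies on the other strand.

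C3: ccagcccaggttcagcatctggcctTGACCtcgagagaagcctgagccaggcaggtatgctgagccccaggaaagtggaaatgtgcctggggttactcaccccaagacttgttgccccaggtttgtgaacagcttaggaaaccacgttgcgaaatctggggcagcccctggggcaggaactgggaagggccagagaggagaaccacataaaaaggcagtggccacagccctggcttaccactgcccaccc
Cfi: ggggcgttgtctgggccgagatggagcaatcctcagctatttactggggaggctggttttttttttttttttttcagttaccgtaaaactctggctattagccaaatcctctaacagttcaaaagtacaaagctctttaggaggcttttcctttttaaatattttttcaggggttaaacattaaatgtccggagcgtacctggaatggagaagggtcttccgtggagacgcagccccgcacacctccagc
Cd55: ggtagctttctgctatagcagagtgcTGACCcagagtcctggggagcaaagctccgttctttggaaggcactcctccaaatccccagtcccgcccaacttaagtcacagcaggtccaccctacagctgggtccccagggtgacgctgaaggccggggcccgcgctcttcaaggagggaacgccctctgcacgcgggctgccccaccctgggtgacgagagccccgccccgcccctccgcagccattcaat

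A promoter sequence was matched for 5 of the 7 genes (all but Clu and C1qc). It was searched on both strands from 250 bases before the annotated start, as printed, to 50 bases after it, as were all other promoters. The full palindrome GGTCANNNTGACC was found in 0 of the 5 and in 0.0269% of the 33469 promoters in the RefSeq table. The half-site was found in 3 of the 5, in C3 with its first base at -225, in Cd55 at -224 and in C1qb at -115, -106 and -13, and in 40.5% of all promoters. The core of the xenobiotic response element, GCGTG, to which the aryl hydrocarbon receptor binds, was found in Cd55 at -62 and in 29.7% of all promoters. The AP-1 site TGANTCA was found in 0 of the 5 and in 7.33% of all promoters. A match in these letters is a description of the sequence, and binding was not measured.

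C3 showed the widest separation between groups among the 7 genes. Its intensity was 4767, 3979 and 6606 in the E2+3-MC rats and 6741, 5812 and 5448 in the E2 rats. In the 3-MC rats it was 90.6, 89.5 and 175, and in the vehicle rats 59.5, 33.0 and 36.8. Every rat that received E2 lay far above every rat that did not, and the vehicle mean of 5.86 ± 0.33 (SD, n = 3) on the log2 scale was below the limit for dim genes. C3 rose by 6.69 ± 0.26 with E2 against vehicle (adjusted p = 1.04e-11 in limma, 103-fold on this scale) and by 6.44 ± 0.26 with E2+3-MC against vehicle (adjusted p = 2.87e-11). E2+3-MC exceeded 3-MC by 5.28 ± 0.26 (adjusted p = 3.69e-10). With an offset of 1 or 64 in place of 16 the E2 minus vehicle difference was 7.13 or 5.83.

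C3 was the gene of the set that stood highest with 3-MC alone relative to vehicle. The 3 rats of the 3-MC group were all above the 3 vehicle rats, with a difference of 1.15 (95% confidence interval 0.61 to 1.70). This had an unadjusted limma p of 0.000329 and did not pass adjustment (adjusted p = 1.00). Without 3-MC rat 3, which had the highest C3 of its group, the difference was 0.87. Between 3-MC and vehicle 0 of the 7 genes and 0% of all genes tested were called. At an unadjusted p under 0.05 these were 1 of the 7 (C3) and 0.808% of all genes. C3 and Cfi were the 2 of the 7 whose 3-MC rats all lay above the vehicle rats, as did 2.56% of all genes tested. For Cfi the margin was narrow, with a lowest 3-MC intensity of 27.7 and a highest vehicle intensity of 27.1. Both of these Cfi group means were under the limit for dim genes. The Cfi difference between 3-MC and vehicle was 0.21, with a 95% confidence interval of -0.23 to 0.66.

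Cfi encodes factor I, the serine protease that cuts C3b once a cofactor is bound. Cfi intensity was 297, 363 and 474 in the E2+3-MC rats and 457, 294 and 395 in the E2 rats. In the 3-MC rats it was 38.6, 27.7 and 28.8, and in the vehicle rats 25.0, 27.1 and 22.8. The rats with E2 formed one range and those without it another, and both groups without E2 had means under the limit for dim genes. Cfi rose by 3.26 ± 0.21 with E2 against vehicle (adjusted p = 9.79e-09 in limma, 9.58-fold) and by 3.24 ± 0.21 with E2+3-MC (adjusted p = 1.31e-08). The difference between E2+3-MC and 3-MC was 3.03 ± 0.21 (adjusted p = 3.45e-08). The size rests on the offset added before the log2 transform, since Cfi was dim without E2: with E2 against vehicle it was 3.86 at an offset of 1 and 2.31 at an offset of 64, called in both.

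Cd55 encodes decay-accelerating factor, a membrane-anchored protein that takes apart the enzymes that cleave C3 and C5 on the surface of host cells. Its intensity was 2302, 854 and 2874 in the E2+3-MC rats and 2799, 2092 and 2298 in the E2 rats, against 413, 267 and 377 in the 3-MC rats and 405, 313 and 235 in the vehicle rats. All 6 rats given E2 lay above the 6 others, and E2+3-MC rat 2 was the lowest of them. Cd55 rose by 2.88 ± 0.34 with E2 against vehicle (adjusted p = 1.32e-05 in limma, 7.34-fold), and by 2.46 ± 0.34 with E2+3-MC against vehicle (adjusted p = 1.08e-04). Without E2+3-MC rat 2, E2+3-MC against vehicle gave 2.99. Between E2+3-MC and 3-MC Cd55 rose by 2.31 ± 0.34 (adjusted p = 2.29e-04), and by 2.83 without that rat.

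**Figure D1:**
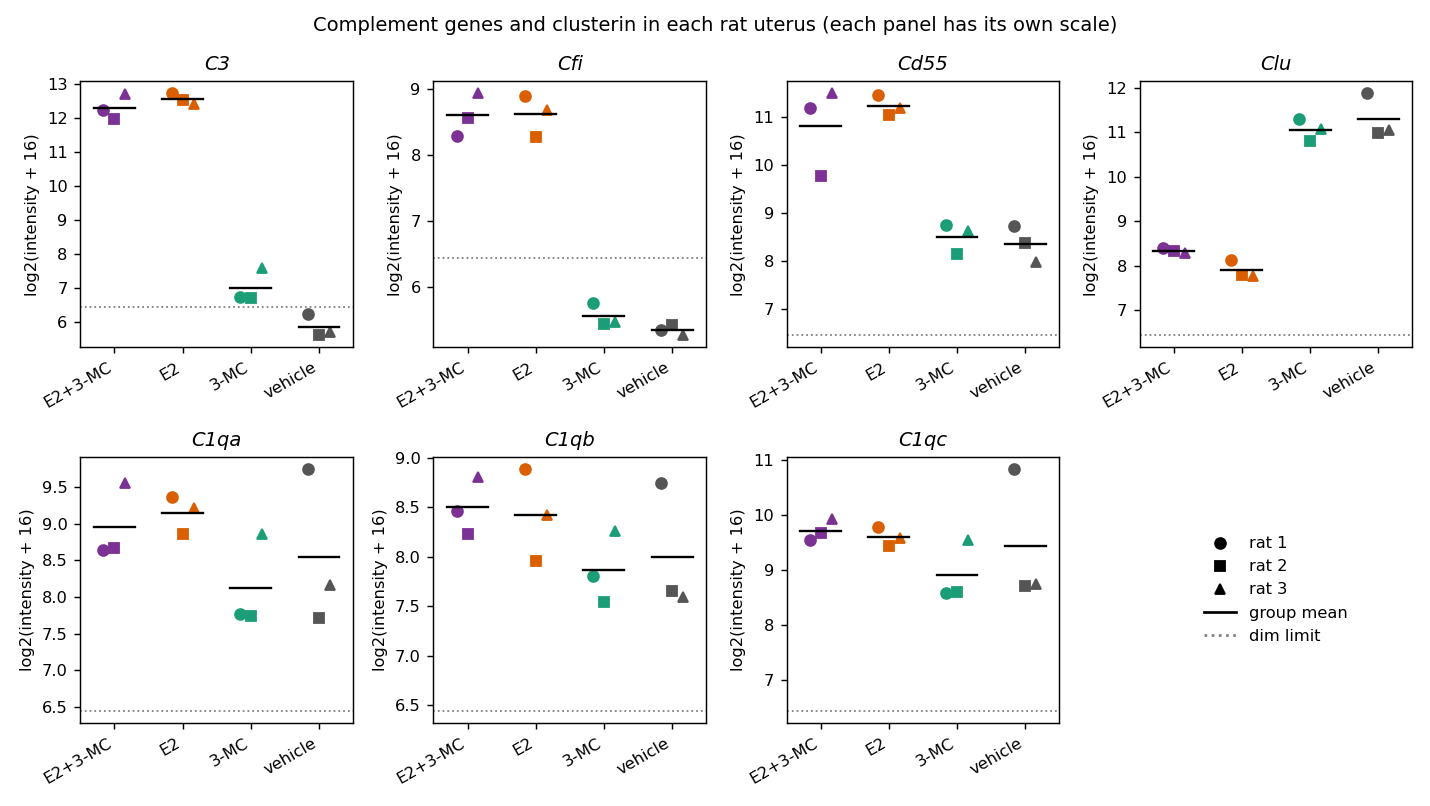
Level of each gene on the log2(intensity + 16) scale in every rat, 1 panel per gene with its own scale. Symbols stand for rats 1 to 3 of each group, horizontal bars for group means and the dotted line for the limit of dim genes at 6.44. C3, Cfi and Cd55 are high and Clu is low in the 6 rats given E2, while the C1q chains overlap between groups and vehicle rat 1 lies above the other 2 vehicle rats.

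Epithelial markers moved with these 3 genes. Of 16 epithelial markers tested, 11 rose and 0 fell with E2 against vehicle, where 8.7% of all genes were called higher. Elf3, an epithelial transcription factor, rose by 3.53 ± 0.29 and the keratin gene Krt8 by 2.93 ± 0.38. With E2+3-MC against vehicle 6 rose and 0 fell, beside 6.06% of all genes called higher. The summed intensity of the list was 10716 to 20745 in the E2+3-MC rats, 19126 to 23507 in the E2 rats, 4814 to 6391 in the 3-MC rats and 5263 to 10840 in the vehicle rats. E2+3-MC rat 2, the lowest in Cd55, was also the lowest of its group in this list, at 10716. This was not particular to epithelium. The same rat was the lowest of its group in the summed macrophage, smooth muscle, stromal, mesothelial and neutrophil markers. It was the highest in the endothelial, adipocyte, erythrocyte, lymphocyte and hepatocyte markers. In Cfi it was not the lowest of its group. In RNA from whole tissue, fewer cells of a type and less RNA per cell cannot be told apart, and the part of epithelial RNA in the changes of C3, Cfi and Cd55 was not tested.

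Clu moved the other way. Clusterin is a chaperone of the extracellular space that is known from the rat prostate as a product that rises when androgen is withdrawn. Clu intensity was 325, 305 and 296 in the E2+3-MC rats and 266, 205 and 203 in the E2 rats. It was 2485, 1784 and 2152 in the 3-MC rats and 3749, 2016 and 2108 in the vehicle rats. The 6 rats given E2 all lay below the 6 that were not. Clu fell by 3.41 ± 0.23 with E2 against vehicle (adjusted p = 1.76e-08 in limma, 10.6-fold lower) and it fell by 2.97 ± 0.23 with E2+3-MC against vehicle (adjusted p = 1.37e-07, 7.81-fold lower). With E2+3-MC against 3-MC it fell by 2.72 ± 0.23 (adjusted p = 4.26e-07).

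Markers of several cell types were lower along with Clu. With E2 against vehicle 9.44% of all genes were called lower. In that comparison 7 of 8 adipocyte markers tested fell, 3 of 3 erythrocyte markers, 3 of 4 mesothelial markers and 7 of 9 endothelial markers, and 0 rose in any of these lists. Their median differences were -1.62, -2.06, -1.26 and -0.93. With E2+3-MC against vehicle 0 of 8, 3 of 3, 0 of 4 and 4 of 9 fell, in the same order, beside 1.78% of all genes called lower. With E2+3-MC against 3-MC 0 were called lower in any of them, beside 1.39% of all genes. The median differences of these lists were then 0.43, -0.51, -0.55 and -0.54, in the same order, against 0.08 over all genes. The part of these cell types in the fall of Clu with E2 was not tested.

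Whether 3-MC altered the response to E2 was addressed by setting E2+3-MC against E2 and by the interaction, the 3-MC difference with E2 minus the 3-MC difference without it. In both, 0 of the 7 genes and 0% of all genes tested were called by limma. At an unadjusted p under 0.05, E2+3-MC against E2 had 0 of the 7 and 9.23% of all genes, and the interaction had 1 of the 7 (C3) and 2.93% of all genes. For C3 the difference between E2+3-MC and E2 was -0.26, with a 95% confidence interval of -0.80 to 0.29 (adjusted p = 0.785). That interval leaves room for a C3 level lower by up to 0.80 or higher by up to 0.29. For Cfi the difference was -0.02 (interval -0.46 to 0.43, adjusted p = 0.99). The Cd55 difference of -0.41 (interval -1.13 to 0.30, adjusted p = 0.724) was 0.11 without E2+3-MC rat 2.

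Clu was the gene of the 7 whose E2+3-MC and E2 rats did not overlap. All 3 rats given both compounds were above the 3 given E2, with a difference of 0.44 (interval -0.05 to 0.93, adjusted p = 0.569), and 16.7% of all genes tested were likewise higher without overlap. The C3 interaction was -1.41 ± 0.36 (adjusted p = 0.977). It is the 3-MC difference of -0.26 in rats given E2 minus that of 1.15 in rats without E2. For Clu the interaction was 0.69 ± 0.33 (adjusted p = 0.977), for Cd55 -0.56 ± 0.48 and for Cfi -0.23 ± 0.30.

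**Figure D2:**
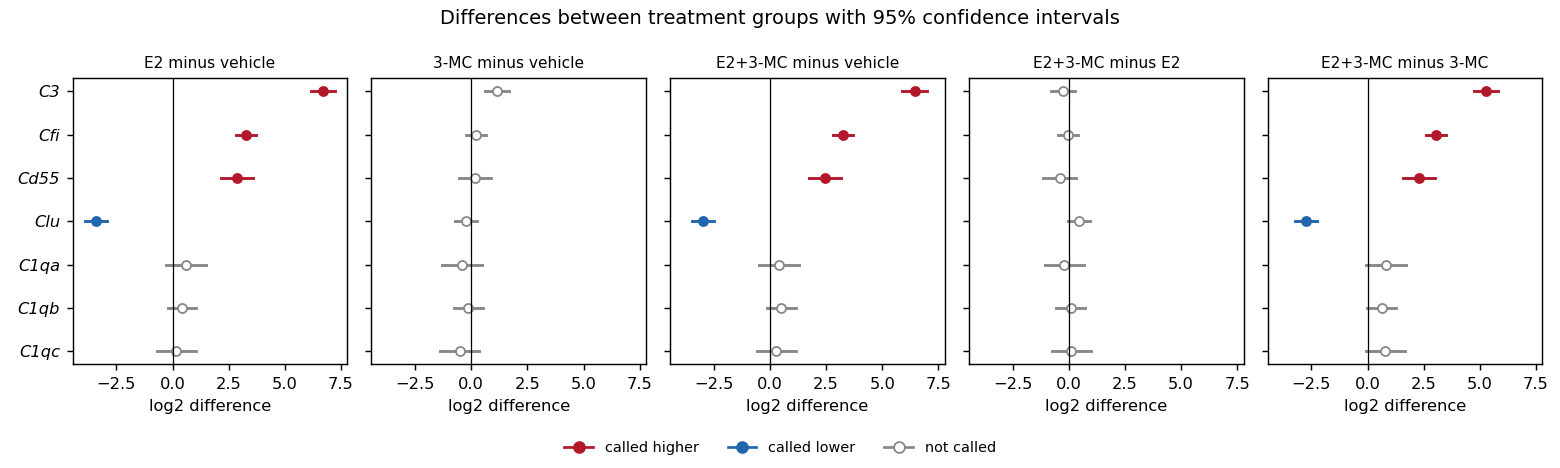
Difference between groups for each gene, on the log2 scale, with its 95% confidence interval, in 1 panel per comparison. Filled points were called and open points were not. C3, Cfi and Cd55 lie to the right and Clu to the left in the 3 comparisons that set E2 or E2+3-MC against rats without E2, while 0 of the 7 genes were called for 3-MC against vehicle and for E2+3-MC against E2.

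The 3 C1q genes encode chains that assemble into 1 molecule, and all 3 had wide ranges among vehicle rats. C1qa intensity was 383, 392 and 733 in the E2+3-MC rats, 642, 447 and 578 in the E2 rats, 202, 198 and 450 in the 3-MC rats, and 844, 195 and 272 in the vehicle rats. C1qb intensity was 338, 284 and 432 with E2+3-MC, 458, 233 and 327 with E2, 208, 171 and 291 with 3-MC, and 412, 186 and 177 with vehicle. C1qc intensity was 728, 804 and 955 with E2+3-MC, 868, 680 and 751 with E2, 368, 373 and 734 with 3-MC, and 1810, 400 and 415 with vehicle. In each chain vehicle rat 1 stood above the other 2 vehicle rats, and for C1qa and C1qc it was the highest of all 12 rats. In the 3-MC group rat 3 was the highest for all 3 chains.

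With all rats, the E2 minus vehicle difference was 0.60 for C1qa (95% confidence interval -0.28 to 1.48, adjusted p = 0.342 in limma), 0.42 for C1qb (interval -0.22 to 1.07, adjusted p = 0.357) and 0.18 for C1qc (interval -0.70 to 1.05, adjusted p = 0.807). The E2+3-MC minus vehicle difference was 0.41, 0.50 and 0.29 for C1qa, C1qb and C1qc (adjusted p = 0.71, 0.43 and 0.826). Against 3-MC, E2+3-MC was higher by an uncalled 0.83 in C1qa, 0.63 in C1qb and 0.80 in C1qc (adjusted p = 0.292, 0.262 and 0.311). The 3-MC minus vehicle difference was -0.42, -0.13 and -0.52, and that of E2+3-MC minus E2 was -0.19, 0.08 and 0.11, in the same order, none of them called.

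Vehicle rat 1 decided these calls. Without it, E2 exceeded vehicle by 1.20 in C1qa (adjusted p = 0.00231), 0.80 in C1qb (adjusted p = 0.0114) and 0.88 in C1qc (adjusted p = 0.00432), and all 7 genes were called, where 34.9% of all genes tested were. E2+3-MC then exceeded vehicle by 1.01, 0.87 and 0.99 (adjusted p = 0.0109, 0.00782 and 0.00228). E2+3-MC also exceeded 3-MC by the same 0.83, 0.63 and 0.80 as before, now with adjusted p = 0.0225, 0.035 and 0.00579, since the spread that all groups share was smaller. Without vehicle rat 2 the C1qc difference between E2 and vehicle was -0.19, and without vehicle rat 3 it was -0.16. With both quantile normalization and vehicle rat 1 left out, a setting added after the data were seen, E2 exceeded vehicle by 0.97 in C1qa (adjusted p = 0.0247), 0.65 in C1qb (adjusted p = 0.0125) and an uncalled 0.52 in C1qc (adjusted p = 0.0781).

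**Figure D3:**
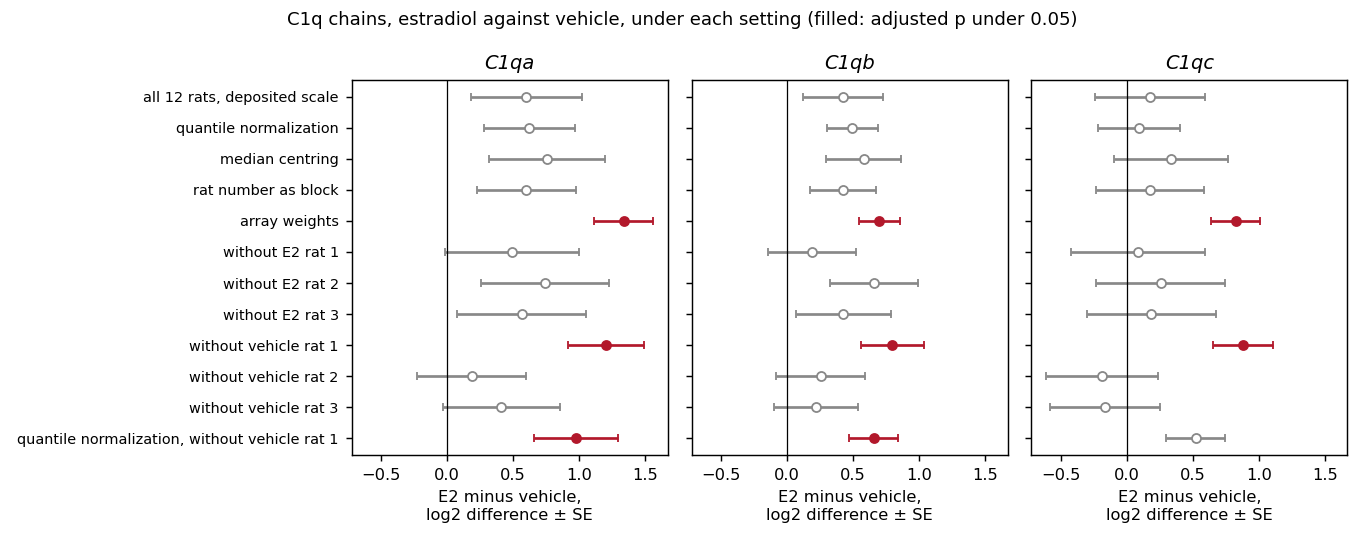
E2 minus vehicle difference of C1qa, C1qb and C1qc on the log2 scale, with the SE as error bars, under 12 settings of the fit. Filled points have an adjusted p under 0.05. The 3 chains are filled with vehicle rat 1 left out or with array weights, C1qa and C1qb also with quantile normalization and vehicle rat 1 left out, and all are open in the other settings shown.

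Macrophage markers, given beside the C1q chains, were mostly higher in rats with E2. Of 21 tested, 13 rose, 1 fell and 7 were not called with E2 against vehicle, where 18.1% of all genes were called. With E2+3-MC against vehicle 11 rose and 0 fell, beside 7.84% of all genes called. With E2+3-MC against 3-MC 14 rose and 0 fell, beside 8.21% of all genes called. Fcgr3a, an antibody receptor, rose by 2.61 ± 0.31 with E2, Siglec1, a sialic acid receptor, by 1.97 ± 0.38 and the lysozyme gene Lyz2 by 1.22 ± 0.34. Mertk, a receptor for dying cells, fell by 1.17 ± 0.26. Fcgr3a, Siglec1, Ms4a7 and Cd86, all among those that rose, had means under the limit for dim genes in both groups without E2. They passed that limit through their levels in rats given E2, so the counts of markers that rose are partly set by the filter. With 1 rat left out at a time, the number that rose ran from 8 (without vehicle rat 2 or E2 rat 1) to 18 (without vehicle rat 1) with E2, and from 3 to 18 with E2+3-MC against vehicle. Without vehicle rat 1, 34.9% of all genes were called with E2 and 26.6% with E2+3-MC against vehicle. The median difference over the list was 1.20 with E2 against vehicle, where the 3 C1q chains lay between 0.18 and 0.60. The summed intensity of the 24 markers measured was 11857 to 13629 in the E2+3-MC rats, 10294 to 15337 in the E2 rats, 4366 to 7750 in the 3-MC rats and 4136 to 11484 in the vehicle rats.

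Vehicle rat 1, with the high C1q values, was the highest of its group in these markers and also in those of epithelium, smooth muscle, stroma, endothelium, adipocytes, mesothelium, neutrophils and lymphocytes. Its mean log2 level was 9.09 over the epithelial list, where vehicle rats 2 and 3 had 8.15 and 8.16, and 10.94 over the stromal list, where they had 9.92 and 9.77. Centred on its mean over all 12 rats, vehicle rat 1 stood at 1.06 in C1qa, 0.54 in C1qb and 1.42 in C1qc, and at 0.36 in the median macrophage marker. After quantile normalization these values were 0.57, 0.13, 0.90 and -0.03. It thus lay above all 6 rats given E2 in C1qa and C1qc on the deposited scale. After quantile normalization it still did so in C1qc. In C1qa, at 0.567, it was then below E2 rat 3 (0.570) and E2+3-MC rat 3 (0.616). In the macrophage median it was level with the lowest of the rats given E2 on the deposited scale and below all 6 after quantile normalization. Single macrophage markers differed from this median. On the deposited scale vehicle rat 1 was the highest of all 12 rats in Mrc1 (intensity 372), Spi1 (372), Lgals3 (1745) and Mertk (281). In the other macrophage markers tested it was not. Over the 12 rats the 3 chains differed from one another by a root mean square of 0.24 (C1qa and C1qc), 0.32 (C1qa and C1qb) and 0.33 (C1qb and C1qc) on the centred log2 scale, a description over rats that share a tissue and arrays. The part of macrophage RNA in the C1q values was not tested.

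**Figure D4:**
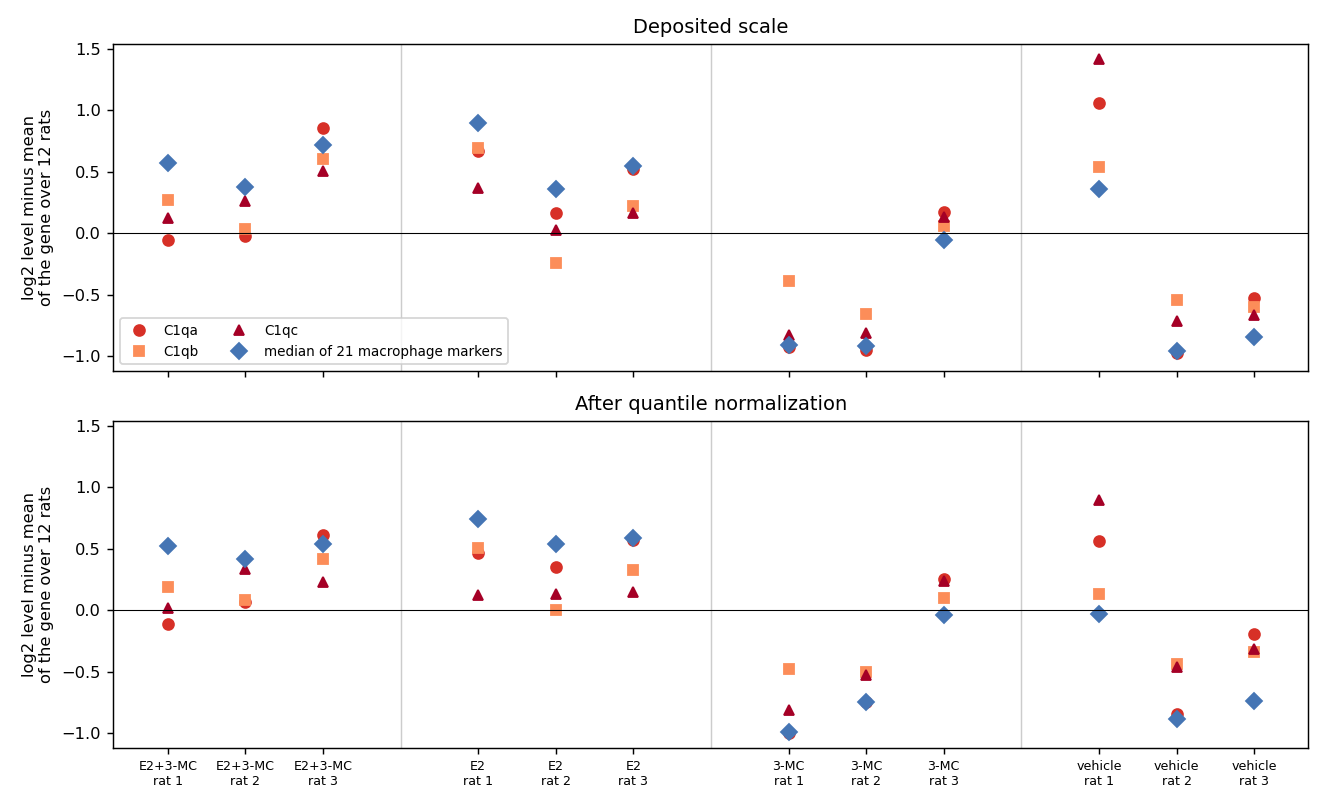
Level of C1qa, C1qb and C1qc and the median of 21 macrophage markers in each rat, as log2 level minus the mean of the gene over the 12 rats, on the deposited scale (top) and after quantile normalization (bottom). Vehicle rat 1 stands above the other 2 vehicle rats on both scales, with C1qc at 1.42 on the deposited scale and 0.90 after quantile normalization, and 3-MC rat 3 stands above the other 2 rats of its group.

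Other genes of the complement system were also called, in both directions with E2 alone. A list of 54 such genes held 43 measured by a probe set of their own, of which 28 were bright enough to be tested. With E2 against vehicle 5 rose, 4 fell and 19 did not pass, so that 9 of 28 were called beside 18.1% of all genes tested, with a median difference of -0.06 against -0.11 over all genes. With E2+3-MC against vehicle 6 rose and 0 fell, beside 7.84% of all genes called, with a median of 0.10 against 0.05. With E2+3-MC against 3-MC 7 rose and 0 fell, beside 8.21% of all genes called. With 1 rat left out at a time, 4 to 14 of the 28 were called with E2, 3 to 13 with E2+3-MC against vehicle and 1 to 11 with E2+3-MC against 3-MC, each highest without vehicle rat 1, where 34.9%, 26.6% and 21.4% of all genes were called. Between 3-MC and vehicle 0 of 28 were called (0 at an unadjusted p under 0.05), and between E2+3-MC and E2 0 of 28 (2 at an unadjusted p under 0.05).

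Among the recognition and initiating proteins, Fcnb, which encodes a ficolin of the lectin pathway, was the member that rose. Its intensity was 210, 218 and 225 in the E2+3-MC rats and 286, 233 and 211 in the E2 rats, against 79.1, 61.0 and 72.7 in the 3-MC rats and 56.9, 86.9 and 54.0 in the vehicle rats. Rats with and without E2 did not overlap, and the E2 minus vehicle difference was 1.68 ± 0.20 (adjusted p = 1.23e-05 in limma). Both groups without E2 had Fcnb means under the limit for dim genes. Masp2, a protease of the lectin pathway, fell by 0.60 ± 0.19 (adjusted p = 0.0395). C1s, the protease that C1q activates, differed by an uncalled 0.46 ± 0.28 (adjusted p = 0.264).

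In the alternative pathway Cfp, which encodes properdin, the protein that stabilises the C3-cleaving enzyme, had intensities of 420, 374 and 584 in the E2+3-MC rats and 692, 458 and 540 in the E2 rats. It had 250, 190 and 268 in the 3-MC rats and 177, 191 and 198 in the vehicle rats. The rats given E2 were all above those that were not, and Cfp rose by 1.48 ± 0.21 with E2 (adjusted p = 1.15e-04 in limma) and by 1.19 ± 0.21 with E2+3-MC against vehicle (adjusted p = 0.00146). In the terminal pathway C7, a part of the membrane attack complex, rose by 1.93 ± 0.36 with E2 (adjusted p = 0.00114) and by 2.03 ± 0.36 with E2+3-MC. Its intensity was 1643, 1279 and 1807 in the E2+3-MC rats, 2046, 1041 and 1441 in the E2 rats, 345, 421 and 949 in the 3-MC rats, and 627, 321 and 251 in the vehicle rats. C7, Fcnb and Cfp were called for E2 against vehicle in every alternative fit that tested them.

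Of the regulators other than Cfi, Cd55 and Clu, Cd59b, which encodes a membrane inhibitor of the attack complex, rose by 0.96 ± 0.25 with E2 (adjusted p = 0.0136) and lost its call without vehicle rat 2 and without E2 rat 3. Vtn, the attack complex inhibitor vitronectin, fell by 0.73 ± 0.18 (adjusted p = 0.0103), and Susd4, a membrane protein, fell by 0.59 ± 0.19 (adjusted p = 0.0412). The regulator genes Serping1, the C1 inhibitor, and Cd46, a cofactor of factor I, differed by uncalled values of -0.26 ± 0.33 and -0.26 ± 0.21. Among receptors C3ar1, the receptor for the C3a fragment, rose by 0.95 ± 0.31 with E2 (adjusted p = 0.0449) and by 1.24 ± 0.31 with E2+3-MC against vehicle (adjusted p = 0.0185). C5ar1, the C5a receptor, and Itgam, a chain of complement receptor 3, rose with E2+3-MC by 1.03 ± 0.29 (adjusted p = 0.034) and 1.00 ± 0.29 (adjusted p = 0.0475). With E2 against vehicle they differed by uncalled values of 0.78 ± 0.29 and 0.83 ± 0.29, and the difference between the 2 treatments was not called for either gene. Itgam means in both groups without E2 were under the limit for dim genes.

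Cd93, a receptor of endothelium and myeloid cells, fell by 0.66 ± 0.21 with E2 (adjusted p = 0.0377), beside 7 of 9 endothelial markers that fell and 0 that rose. C3ar1, C5ar1 and Itgam are carried by myeloid cells, and in the neutrophil list 3 of 5 tested markers rose and 1 fell with E2. S100a8 and S100a9, among those that rose, had means under the limit for dim genes in both groups without E2. They were tested because of their levels with E2, while 5 of the 10 neutrophil markers measured were left out as dim. The count is thus partly set by the filter. Of all genes tested 8.7% were called higher and 9.44% lower with E2. The part of these cell types in the receptor values was not tested. Leaving out 1 of the 12 rats at a time ended the E2 minus vehicle call of Masp2 for 9 rats, of Susd4 for 9, of Cd93 for 8 and of C3ar1 for 10, E2 rats 2 and 3 among them for each gene. It ended the E2+3-MC minus vehicle call of C3ar1 for 3 rats, of C5ar1 for 7 and of Itgam for 10, vehicle rats 2 and 3 among them for each.

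**Figure D5:**
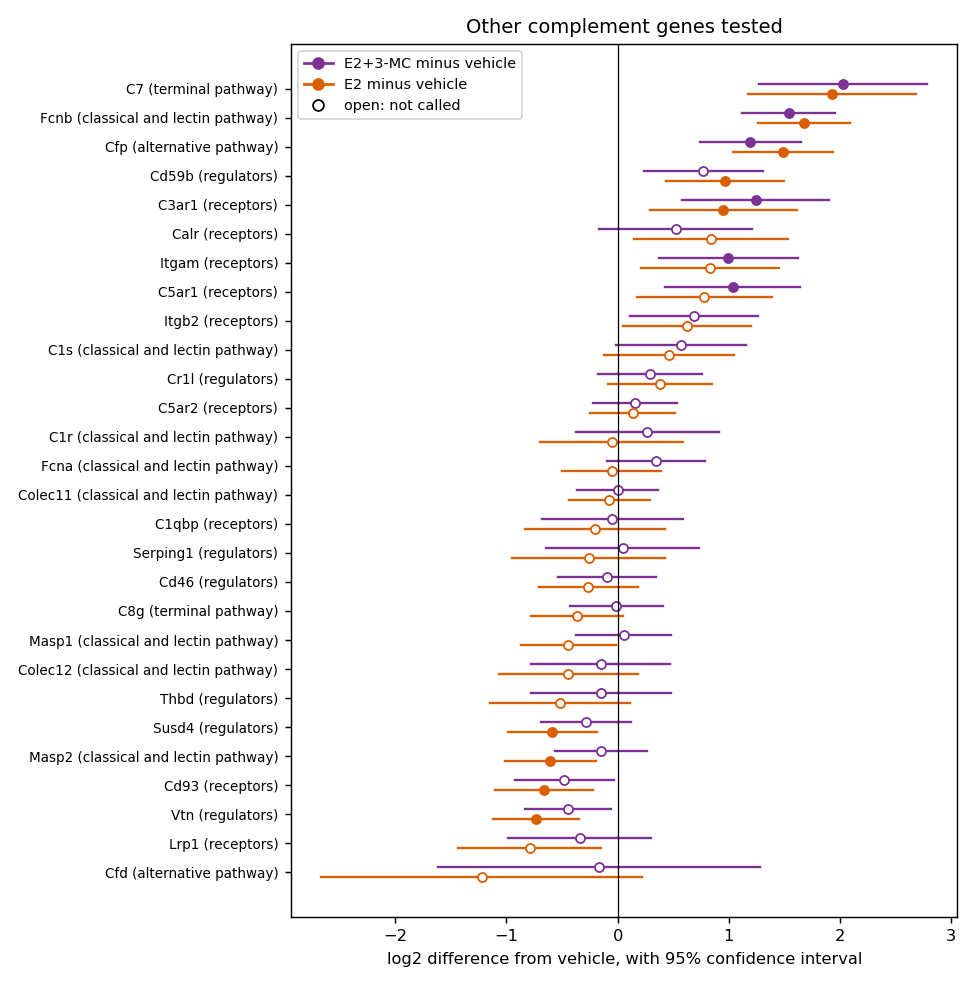
Difference from vehicle of the 28 other complement genes tested, on the log2 scale with 95% confidence intervals, for E2+3-MC and for E2, with the role of each gene in brackets. Filled points were called. Genes are ordered by the E2 difference. C7, Fcnb and Cfp lie at the top, with differences between 1.19 and 2.03 over both treatments. With E2+3-MC C3ar1, at 1.24, exceeds Cfp, at 1.19. The uncalled differences for E2 reach from -1.22 (Cfd) to 0.84 (Calr).

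C2, Cfb, C4a and C4b have no probe set with their symbol alone, so none of these 4 was tested. One probe set annotated to both C4b and C4a had intensities of 1345, 1528 and 1464 in the E2+3-MC rats, 1381, 977 and 1078 in the E2 rats, 1075, 631 and 1520 in the 3-MC rats, and 2016, 793 and 710 in the vehicle rats. These groups overlapped, with an E2 minus vehicle difference of 0.12.

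Genes with the pattern nearest to that of C3 over the 12 rats were Mmp7, a matrix protease, and Cuzd1, Scgb1a1 and Fam3d, with root mean square differences from C3 of 0.37, 0.40, 0.49 and 0.54 on the centred log2 scale, where C3 itself varied by 3.04 about its mean. Nearest to Clu were Kcnip1, Wif1, a secreted Wnt inhibitor, Aldh1a1, a retinaldehyde dehydrogenase, and Mt3, at 0.35, 0.37, 0.38 and 0.38, against 1.56 for Clu about its own mean. Nearest to C1qb were Mob1a, C1s, Cops3 and Cd47, at 0.12, 0.13, 0.13 and 0.13, against 0.46 for C1qb about its own mean. The other 2 C1q chains, at 0.32 and 0.33, were not among the 4 nearest to C1qb.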

How the data were processed

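RNA of 12 uteri, 1 Affymetrix array per rat, was measured as biotin-labelled cRNA, per the labels' protocols. The authors made the deposited intensity values with Affymetrix Expression Console and PLIER, per the submitters' processing notes. Software versions, a genome build and whether arrays were scaled to each other were not given in the sources used here. Rats are separate animals and were grouped by their titles.

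Of 29214 probe sets, 15310 have 1 gene symbol in the platform's annotation, 323 have several and 13581 list none. The probe set with the highest mean was kept per gene (14506 genes). Intensities were transformed as log2(intensity + 16), and the dimmest 30% of genes were left out. R 4.3.3 and limma 3.58.1 (lmFit and eBayes) fitted 1 mean per group over all 12 arrays, with 8 residual degrees of freedom, for 5 pairwise comparisons and the interaction. P-values are two-sided and adjusted by the Benjamini-Hochberg method over 10154 genes. The fit was tested on simulated data. The number of arrays limits the precision, with a median SE of 0.22 for E2 minus vehicle.

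The genes and lists were chosen with earlier results of these data known. Named complement genes are those called in at least 1 comparison, plus a set named whatever its result. Marker genes named are among those with the highest level or the largest called change. Exceptions are macrophage markers in which vehicle rat 1 was highest and markers named because they were dim without E2. Cd59 appears as Cd59b, as the annotation gives it. For patterns, the 4 nearest genes are named. Motifs were searched with Python 3.11.15 in RefSeq promoter sequences of GRCr8, whose coordinates are used for those sequences alone. Alternatives were quantile normalization, median centring, other offsets and dim filters, the mean of probe sets, 2-group fits, trend and robust options, array weights, rat number as a block, and leaving out each rat.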

Additional observations from a re-analysis of the deposited data

Results flagged for a closer look

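One probe set that the tests of single genes did not use is annotated to both Cfb, the factor B gene of the alternative pathway, and C2, its classical pathway counterpart, and cannot be assigned to either. Its intensity was 843, 865 and 1238 in the E2+3-MC rats and 1531, 1085 and 1192 in the E2 rats. It was 218, 175 and 426 in the 3-MC rats and 390, 135 and 152 in the vehicle rats. It drew attention because every rat given E2 lay above every vehicle rat, in data outside the tests. Of all genes tested, 10.1% with E2 and 10.7% with E2+3-MC likewise lay above vehicle without overlap. The difference from vehicle was 2.55 on the log2 scale with E2 and 2.18 with E2+3-MC, without a test.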

How the results depend on the processing

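C3, Cfi, Cd55 and Clu kept their direction and their call in the 3 comparisons of E2 or E2+3-MC with rats that had no E2, under every alternative run that tested them (Cfi was not tested with the dimmest 50% left out). Of the 7 genes, array weights called 7 instead of 4 in both E2 minus vehicle and E2+3-MC minus vehicle, where 61% and 44.9% of all genes were called. For E2+3-MC minus 3-MC 7 were called when only those 2 groups were fitted, with 22.4% of all genes. The weights gave vehicle rat 1 a weight of 0.0662 and other arrays up to 5.52. With them 1 gene (C3) was called for 3-MC minus vehicle, where 0.0394% of all genes were called. For E2+3-MC minus E2 they called 1 (Clu), with 50.5% of all genes. In the interaction they called 3 (C3, Clu and C1qa), with 11% of all genes. There C1qa was reversed to -0.99 (adjusted p = 0.0375 in limma), against 0.23 with all rats at equal weight. With 1 rat left out at a time, the number called ran from 4 to 7 in the 3 comparisons with 4 calls, with 7 without vehicle rat 1, and was 0 in the other 3. The cause was not tested.

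Rat numbers recur in every group. Same-numbered rats correlated between -0.271 and 0.239 in their deviations from the group means over 18 pairs, 8 of them over 0.1, and 5 of 12 rats correlated best with their own number, so the numbers were not taken as pairs. With rat number as a replicate block, the numbers called were 4, 0, 4, 0, 4 and 0 of 7, as without it, while all genes called for E2 minus vehicle numbered 2545 against 1842.

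Over all genes, E2 minus vehicle had 3904 calls after quantile normalization, 6197 with array weights and 961 with 2 groups fitted. Median centring put the median difference of all genes at 0.05 against -0.11 and the calls at 1535 higher and 801 lower against 883 and 959. For E2+3-MC minus vehicle, quantile normalization gave 1300 higher and 1350 lower calls against 615 and 181. Of the 28 other complement genes, 11 rose and 6 fell with E2 after quantile normalization, 13 rose and 8 fell with array weights, and 4 rose and 0 fell with 2 groups fitted. Intensities near the background limit what can be said of C3 in vehicle rats. The same holds for Cfi, Fcnb, Itgam, Fcgr3a, Siglec1, Ms4a7, Cd86, S100a8 and S100a9 in rats without E2.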

Other observations

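Genes next to these in the RefSeq gene order of GRCr8, looked up after the results were seen, moved with some of them and not with others. Gulo, beside Clu, encodes the last enzyme of vitamin C synthesis in the rat, and it fell by 4.32 ± 0.28 with E2 against vehicle (adjusted p = 9.59e-09 in limma). Scara3, on the other side of Clu, fell by 0.85 ± 0.28 (adjusted p = 0.0435). Gpr108, next to C3, rose by 0.92 ± 0.27 (adjusted p = 0.0253). Gar1 and Pla2g12a, on either side of Cfi, differed by uncalled values of -0.22 ± 0.24 and -0.02 ± 0.18. On the other side of C3 the nearest gene tested, Crb3, lay 7 protein-coding genes away and rose by 1.38 ± 0.26 (adjusted p = 0.00121 in limma). Nearest to Cd55, Cxcr4 and Pfkfb2 differed by an uncalled 0.47 and -0.03. Nearest to the C1q genes, Ephb2 and Wnt4 differed by an uncalled 0.44 and 0.12. Of all genes tested 18.1% were called with E2. These neighbours were chosen after their values were seen and are given as values.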
